A study of Mus musculus with 6 samples.

Results

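The choroid plexus epithelium was examined in single-nucleus RNA sequencing of brains from a mouse model of post-hemorrhagic hydrocephalus (PHH), in which lysophosphatidic acid (LPA), a blood-borne signaling lipid, is injected into a lateral ventricle. Its nuclei were chosen by the genes they expressed. A nucleus was kept as a member if it held at least 3 UMIs (unique molecular identifiers, each standing for 1 captured RNA molecule) summed over Slc4a5, Kl, Clic6 and Folr1 and at least 2 UMIs of Enpp2. It also had to hold at most 5 UMIs of the motile cilia genes Dnah12, Cfap299 and Spag17 and at most 1 UMI of the myelin genes Mog and Mag. Of 60724 nuclei with at least 300 genes and at most 1% mitochondrial UMIs, 779 (1.28%) were members.

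The series held 6 libraries of NeuN-negative nuclei, that is, nuclei without the neuronal marker by sorting. Of these, 3 came from LPA-injected and 3 from vehicle-injected C57BL/6 S-56 mice with no genetic alteration named in the labels or methods. Pups received 5 µl of LPA, or of the albumin solution that carried it, in the right lateral ventricle at postnatal day 7, and brains without olfactory bulbs and cerebellum were taken at postnatal day 15. The vehicle animals thus shared the surgery, anesthesia and carrier protein, and the LPA concentration of these 6 brains was not given in the sources used here. By Xist and chromosome Y UMIs, 1 of the 3 LPA brains and 2 of the 3 vehicle brains were assigned male. Per 1000000 UMIs, LPA brain 1 and vehicle brains 1 and 3 held 0.511 to 0.692 Xist UMIs and 652 to 870 chromosome Y UMIs. LPA brains 2 and 3 and vehicle brain 2 held 2218 to 2533 Xist UMIs, but also 285 to 424 chromosome Y UMIs. The source of the chromosome Y UMIs in the brains with high Xist was not tested, so their sex was not settled. Replicates are named by number within each group, and the labels call each library a brain.

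The choroid plexus is a folded epithelium inside the brain ventricles that secretes most of the cerebrospinal fluid (CSF). Its cells move sodium, chloride and bicarbonate into the ventricle with water following, hold the barrier between blood and CSF with tight junctions, and release carrier proteins such as transthyretin. They carry tufts of cilia, unlike the ependymal cells of the ventricle wall, whose many motile cilia stir the fluid. They are also a known source of autotaxin, the secreted enzyme, encoded by Enpp2, that makes LPA from a circulating precursor.

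The members per library were 118, 153 and 130 in LPA brains 1 to 3, and 147, 87 and 144 in vehicle brains 1 to 3. As a share of the nuclei kept, they made up 1.38%, 1.49% and 1.43% in LPA brains, and 1.81%, 0.701% and 1.17% in vehicle brains. The LPA brains lay inside the range of the vehicle brains. The mean share was 1.43% ± 0.0533 (SD, n = 3) against 1.23% ± 0.559 (SD, n = 3), a difference of 0.206 percentage points (two-sided exact permutation test, p = 0.7, the smallest p possible being 0.1). Without vehicle brain 2 the difference was -0.0574 points, and without vehicle brain 1 it was 0.499 points. At equal depth, with each nucleus thinned to 2000 UMIs and shallower nuclei left out, the difference was 0.0844 points (exact permutation test, p = 0.8). Set against the ependymal nuclei of the same library, there were 0.602, 0.879 and 0.613 choroid plexus nuclei per ependymal nucleus in LPA brains, and 0.875, 1.14 and 1.40 in vehicle brains (exact permutation test, p = 0.2). These groups overlapped only narrowly, at LPA brain 2 and vehicle brain 1.

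**Figure D1:**
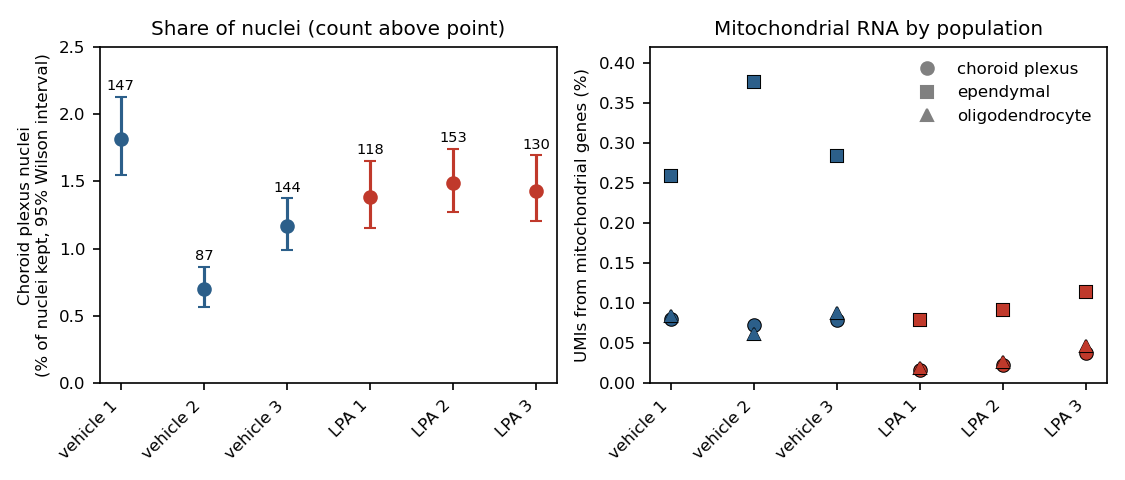
Left, choroid plexus nuclei as a percentage of all nuclei kept in each library, with 95% Wilson intervals, which cover counting error only, and the number of nuclei above each point. Right, the percentage of UMIs from mitochondrial genes in choroid plexus, ependymal and oligodendrocyte nuclei of each library (vehicle in blue, LPA in red). The LPA shares on the left lie within the vehicle range, and on the right every LPA library lies below every vehicle library within each population.

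Summed over the members, a library held 702762 to 853741 UMIs after LPA and 451604 to 810756 after vehicle. The median member held 4924, 4919 and 4911.5 UMIs in LPA brains, and 4620, 4181 and 3478 in vehicle brains. Every LPA library was thus deeper per nucleus than every vehicle library (exact permutation test, p = 0.1, the smallest possible). No cell barcode was shared between members of different libraries. Scrublet, which scores nuclei for resemblance to simulated doublets, called 19.4% to 26.3% of the members of a library, against 16.1% to 19.4% of all its nuclei.

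Genes that the rule did not count identified the members as choroid plexus epithelium. Ttr, which encodes transthyretin, was detected in 97.8% of members, at 5668 CPM (UMIs of the gene per 1000000 UMIs of the pooled nuclei). It stood at 27.5 CPM in ependymal nuclei and at 17.5 CPM in oligodendrocyte nuclei. Ttr UMIs were also found in 10.8% of ependymal and 10.5% of oligodendrocyte nuclei, cells that should lack the gene, at median depths of 3613 and 6038 UMIs against 4587 in members. Shares of that size were read as background and not as expression. Ependymal nuclei were those with at least 10 UMIs of the 3 cilia genes and at most 1 of the 4 choroid plexus genes (929 nuclei), and oligodendrocyte nuclei those with at least 3 UMIs of Mog and Mag (13453 nuclei).

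The edges of the rule were less clear than its center. The 65 members with exactly 3 UMIs of the 4 genes pooled to 3933 Ttr CPM, and the 120 nuclei left out with 2 UMIs to 1062 CPM. The 10 members with exactly 2 Enpp2 UMIs had 16.8 Ttr CPM, a level no higher than that of oligodendrocyte nuclei, and the 41 nuclei left out with 1 Enpp2 UMI had 343 CPM. A further 270 nuclei that passed the other limits were left out for more than 1 UMI of Mog and Mag. They held a median of 9435.5 UMIs and 1210 Ttr CPM.

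Of 21 identity genes outside the rule, all 21 were higher in members than in ependymal nuclei, and 19 were over 2-fold higher after adding 10 CPM to both levels, a step that keeps rare genes from counting. These levels describe how the nuclei were chosen together with what they are, and no test was made of them. Htr2c, the serotonin receptor abundant in this epithelium, stood at 13384 CPM in members against 58.5 in ependymal and 52.7 in oligodendrocyte nuclei. Trpm3, a cation channel gene, stood at 17214 CPM against 1008 and 1060. The prolactin receptor gene Prlr was at 430 CPM against 6.93 and 8.18. The transcription factor genes Otx2 and Lmx1a, both needed for choroid plexus development, were at 376 and 335 CPM against 34.2 and 14.6 in ependymal nuclei. Ins2, an insulin gene, was at 34.5 CPM, with no UMI in ependymal nuclei and 0.117 CPM in oligodendrocyte nuclei.

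The genes of fluid secretion showed the same ordering, with 17 of 39 over 2-fold above ependymal nuclei and 1 over 2-fold below. Stk39, which encodes the kinase SPAK that switches on the chloride cotransporters, was at 3105 CPM against 113 in ependymal nuclei. Its target NKCC1, encoded by Slc12a2, was at 522 CPM against 68.9, but oligodendrocyte nuclei held 448 CPM. The bicarbonate transporter gene Slc4a10 was at 2191 CPM against 118, the calcium pump gene Atp2b3 at 821 against 17.6, and the membrane carbonic anhydrase gene Car12 at 427 against 3.93. Kcne2, a potassium channel subunit gene, was at 43.6 CPM against 0.231.

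Among carriers and nutrient transporters, 14 of 35 were over 2-fold above ependymal nuclei and 3 over 2-fold below. The lipid transporter gene Abca4 stood at 367 CPM against 5.31. The 3 below were the endocytic receptor gene Lrp2, at 2.87 CPM against 42.3, the glucose transporter gene Slc2a1, at 32.8 against 78.8, and the ceruloplasmin gene Cp, at 31.1 against 98.2. Of the junction genes, 8 of 33 were over 2-fold higher, among them Cldn2, the pore-forming claudin of leaky epithelia, at 101 CPM against 2.31, and Cdh3, P-cadherin, at 188 against 0.693.

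The motile cilia genes divided the members from the ependymal nuclei, but both populations were picked by 3 other cilia genes. Members could hold at most 5 UMIs of those 3 and ependymal nuclei had to hold at least 10, so these levels reflect the choice as well as the nuclei. Gmnc, which encodes the geminin-family protein that starts the multiciliated program, was at 1551 CPM in members against 41.4 in ependymal nuclei, and was the only one of the list over 2-fold higher in members. Of the others, 24 were over 2-fold lower. Rfx3, a ciliogenic transcription factor gene, was at 1294 CPM against 792. Foxj1, which drives motile cilia genes downstream, was at 28.7 CPM against 117. The axonemal dynein gene Dnah5 was at 5.27 CPM against 790 and the centriole amplification gene Cdc20b at 6.23 against 418.

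Cell division and body position were checked with lists of their own. The 21 cell division genes summed to 52.9 CPM in members against 244 in ependymal nuclei, and none was abundant enough to be tested. Hox genes, which mark the hindbrain choroid plexus, gave 1 UMI in all over the 13 genes listed.

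**Figure D2:**
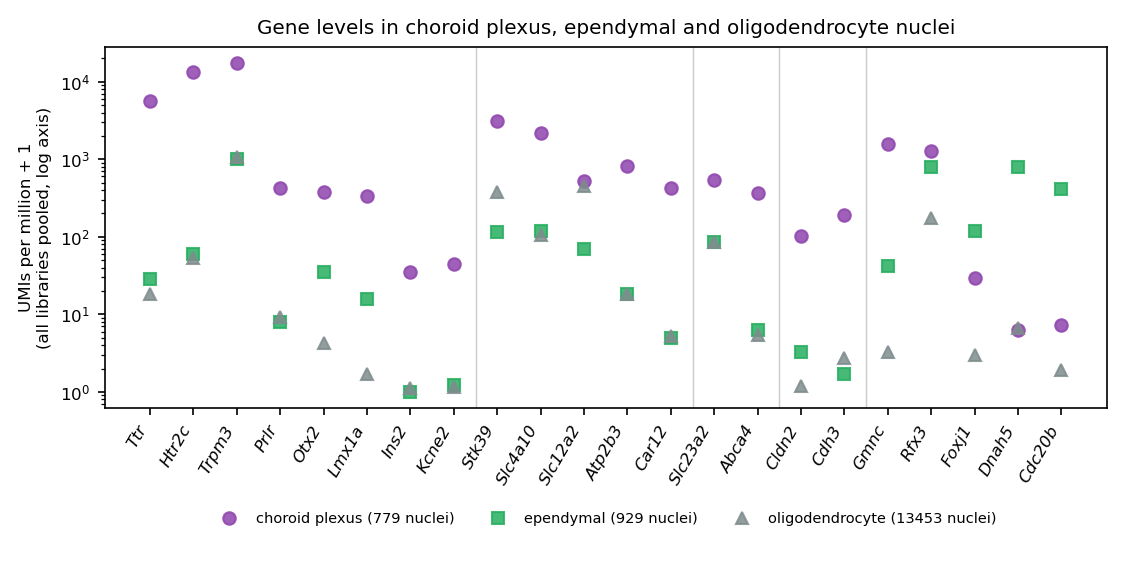
Level of each gene in CPM plus 1 (log axis), pooled over the 6 libraries, in choroid plexus, ependymal and oligodendrocyte nuclei, with lines between identity, secretion, carrier, junction and cilia genes. Levels compare populations for 1 gene, not genes with each other. Ttr and Htr2c stand far above both other populations, whereas Dnah5 and Cdc20b stand far below the ependymal nuclei.

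Some members also held RNA of other cell types. After clustering of the members alone, clusters in which at least 3 markers of another cell type were over 3 times as high as in the rest of the members were set apart as mixed. They held 193 members (24.8%). Of these, 86 were mixed with neuronal, 49 with astrocyte, 37 with oligodendrocyte precursor and 21 with meningeal and stromal markers. The 37 also met this limit for mural markers, with 4 of those raised. The 86 held a median of 9777 UMIs and 2253 Ttr CPM, against 4587 UMIs and 5668 CPM for all members. All 17 members without a Ttr UMI were mixed. The mixed share was 26.3%, 22.9% and 22.3% in LPA libraries, and 27.9%, 26.4% and 23.6% in vehicle libraries. These ranges overlapped, but 10 of the 21 with meningeal markers came from vehicle brain 1. Results are given for all members first, and for some of them also in the 586 unmixed members.

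To ask which genes differed between LPA and vehicle brains, UMIs of the members were summed per library and tested with edgeR's quasi-likelihood test, with p-values adjusted by Benjamini-Hochberg over 9766 genes. A gene was called if its adjusted p was below 0.05 and its log2 fold change was 0.25 or more in either direction. No gene was called higher (0%) and 5 were called lower (0.0512%) in LPA brains. DESeq2 called 3, all lower. At an unadjusted p under 0.05 there were 507 genes (5.19%), 244 higher (2.5%) and 263 lower (2.69%). These p-values rest on the spread among 3 brains a group. The 95% interval of the fold change lay within 2-fold in either direction for 7944 genes and within 1.5-fold for 3692.

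All 5 genes called lower were transcribed from mitochondrial DNA. In normalized CPM (CPM over the UMIs of the tested genes, after TMM scaling), the values behind each call did not overlap between groups. mt-Atp6, a subunit of ATP synthase, changed by -1.74 on the log2 scale (SE 0.210, adjusted p = 0.00249). mt-Co2, a subunit of cytochrome c oxidase, changed by -1.66 (SE 0.230, adjusted p = 0.00751), and mt-Co3, of the same complex, by -1.40 (SE 0.213, adjusted p = 0.0155). The complex I subunits mt-Nd1 and mt-Nd4 changed by -1.86 (SE 0.311) and -1.53 (SE 0.260), both at an adjusted p of 0.0377. The nuclei were themselves selected with at most 1% mitochondrial UMIs, so these values were part of the selection. Without that limit mt-Co2 (-1.59, edgeR adjusted p = 0.0445) and mt-Atp6 (-1.51, adjusted p = 0.0495) were called. There mt-Nd1 (-1.30, adjusted p = 0.222), mt-Co3 (-1.22, adjusted p = 0.0597) and mt-Nd4 (-1.29, adjusted p = 0.0909) were not. All 5 stayed negative under each of 19 alternatives (-1.06 to -2.08), but mt-Nd1 was no longer called in 13 of them, mt-Nd4 in 14, mt-Co3 in 7, mt-Co2 in 4 and mt-Atp6 in 3. Without 1 library the call of mt-Nd1 was lost for each LPA brain and for vehicle brains 2 and 3 (-1.72 to -2.08, adjusted p = 0.0642 to 0.201), and that of mt-Nd4 for every brain but LPA brain 3 (-1.40 to -1.61, adjusted p = 0.072 to 0.203). That of mt-Co3 was lost without LPA brain 2 (-1.23, adjusted p = 0.101), vehicle brain 2 (-1.43, adjusted p = 0.0548) or vehicle brain 3 (-1.33, adjusted p = 0.0741), and that of mt-Co2 without LPA brain 2 (-1.69, adjusted p = 0.0813). Without Scrublet doublets mt-Nd1 stood at -1.16 (adjusted p = 0.924), and in unmixed members at -1.13 (adjusted p = 0.61). With at least 6 UMIs of the 4 genes none of the 5 was called, at -1.25 to -1.57 (adjusted p = 0.0668 to 0.383). Over all 13 mitochondrial genes, their share of UMIs was 0.0166%, 0.0232% and 0.0379% in LPA brains, and 0.0799%, 0.0726% and 0.0791% in vehicle brains. Sorted nuclei hold no mitochondria, and these shares were low in every library.

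The mitochondrial difference was also present in other populations. Ependymal nuclei had 0.0785% to 0.114% in LPA and 0.259% to 0.377% in vehicle brains, and oligodendrocyte nuclei had 0.0185% to 0.0459% against 0.0612% to 0.0881%. In each of these populations the LPA libraries lay below the vehicle libraries (exact permutation test, p = 0.1, the smallest possible). No mitochondrial gene was called in the comparison of responses between choroid plexus and ependymal nuclei or between choroid plexus and all other nuclei. Depth per nucleus also separated the groups, and its part in this difference was not tested. Without an upper limit on mitochondrial UMIs 2 of the 5 genes were called. With sex as a term, as assigned from Xist and chromosome Y UMIs, 7 genes were called, 1 higher and 6 lower. Of these, 4 were among the 5 mitochondrial genes, and the others were the nuclear genes Sorcs1 (1.11, adjusted p = 0.037), Mctp1 (-1.08, adjusted p = 0.0333) and 9630013A20Rik (-1.08, adjusted p = 0.037).

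The secretion machinery is the part of this epithelium that bears most directly on fluid volume. Of its 39 listed genes 37 were tested, and none was called. At an unadjusted p under 0.05 there was 1, against 5.19% of all genes tested. The median log2 fold change was -0.05, against -0.0016 for all genes, and the 95% interval stayed within 1.5-fold for 22 of the 37 genes and within 2-fold for 33. Slc12a2 (NKCC1) had 509, 551 and 561 normalized CPM in LPA brains and 512, 509 and 611 in vehicle brains. Its log2 fold change was -0.01 (95% interval -0.25 to 0.23), so the groups overlapped and a 1.5-fold difference lay outside the interval. Stk39 (SPAK) stood at 0.08 (95% interval -0.10 to 0.26) and Slc4a10 at 0.06 (95% interval -0.13 to 0.26). Aqp1, the water channel of the apical membrane, was measured far less exactly, with a log2 fold change of -0.41 (95% interval -1.02 to 0.20).

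Atp1b1, a sodium pump subunit gene, had a log2 fold change of -0.08 (SE 0.124), with 305, 321 and 328 normalized CPM in LPA brains and 380, 275 and 342 in vehicle brains, where the groups overlapped.

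**Figure D3:**
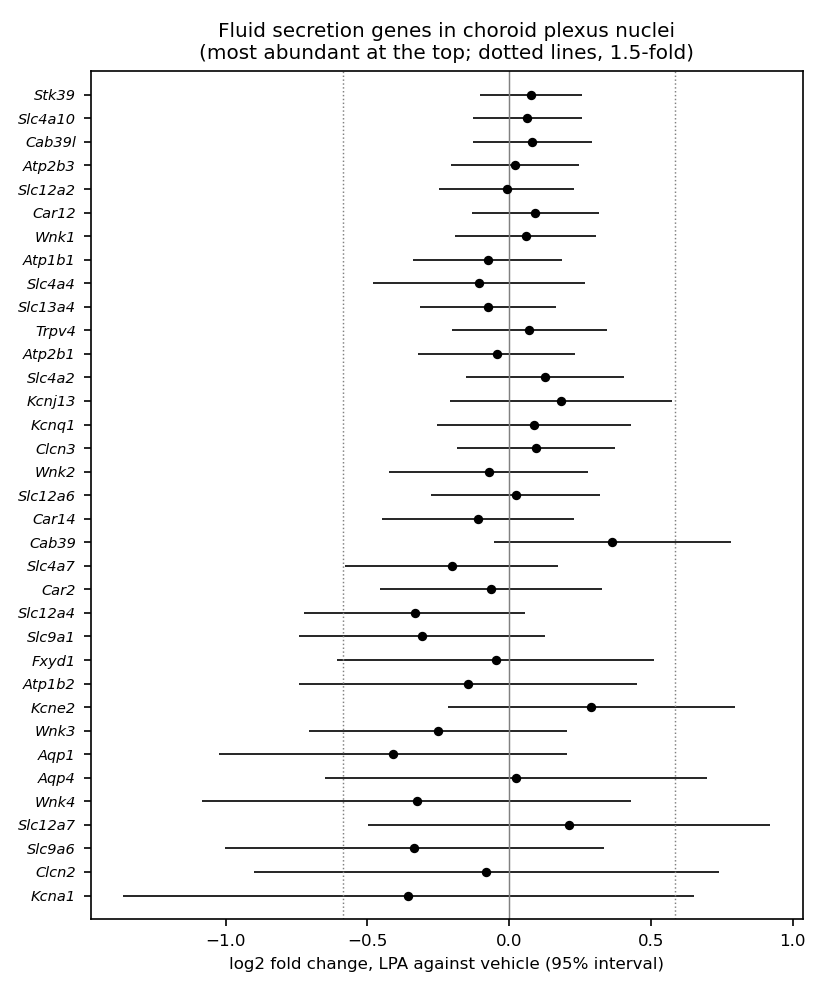
Log2 fold change between LPA and vehicle brains (points, edgeR) with 95% intervals (bars) for tested genes of fluid secretion in choroid plexus nuclei, the most abundant at the top. Dotted lines mark a 1.5-fold difference, and the intervals of abundant genes such as Stk39 and Slc12a2 lie between them, whereas those of rare genes do not.

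The genes that gave the nuclei their identity were likewise not called. Of 20 tested, 3 had a positive and 2 a negative log2 fold change at an unadjusted p under 0.05, which is 25% of the list against 5.19% of all genes tested, and the list's median was 0.08. Ttr had 5718, 6112 and 6167 normalized CPM in LPA brains and 6316, 5776 and 4895 in vehicle brains, with overlapping groups and a log2 fold change of 0.08 (95% interval -0.11 to 0.27). Sulf1, which trims heparan sulfate, had 1319, 1694 and 1582 in LPA brains and 1154, 1106 and 1230 in vehicle brains. These groups did not overlap, and its log2 fold change was 0.40 (SE 0.108, adjusted p = 0.522). Prlr had 373, 361 and 462 against 479, 500 and 551, again without overlap, at -0.35 (SE 0.120, adjusted p = 0.819). In all, 5.8% of the genes tested were higher and 5.26% lower in every LPA library than in every vehicle library.

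The carriers and the junctions followed the same pattern. Of 25 carriers tested none was called, and 2 positive and 1 negative had an unadjusted p under 0.05 (12% against 5.19% of all genes), with a median of -0.03. Slco1a4, an organic anion and thyroid hormone transporter gene, was at 0.35 (SE 0.136, adjusted p = 0.924), with 219, 245 and 184 normalized CPM in LPA brains and 184, 157 and 163 in vehicle brains. Cp, which encodes the iron-handling protein ceruloplasmin, was at -0.99 (SE 0.356, adjusted p = 0.912) and came from 130 UMIs in all. Of 26 junction genes none was called, with 2 positive and 1 negative at an unadjusted p under 0.05 (11.5% against 5.19%) and a median of 0.07. Magi3, a scaffold of tight junctions, had 193, 193 and 217 normalized CPM in LPA brains and 158, 143 and 105 in vehicle brains. It did not overlap between groups, and its log2 fold change was 0.56 (SE 0.148, adjusted p = 0.51). The polarity gene Pard3 was at 0.29 (SE 0.116) and the claudin gene Cldn1 at -0.56 (SE 0.264), with adjusted p = 0.924 for both.

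Secreted factors included 22 tested genes, of which none was called. With an unadjusted p under 0.05 there were 3 (13.6%), all negative, against 2.69% of all genes in that direction, and the median was -0.04. Cst3, the protease inhibitor cystatin C that is abundant in CSF, had 192, 195 and 189 normalized CPM in LPA brains and 275, 361 and 221 in vehicle brains. The groups did not overlap, and its log2 fold change was -0.56 (SE 0.148, adjusted p = 0.51), with -0.46 in unmixed members. Apoe, the brain's main lipid carrier, was at -0.35 (SE 0.145) and the growth factor gene Igf2 at -0.70 (SE 0.305). In unmixed members these were at 0.01 and -0.24. Igf2 is strong in meninges. The 12 markers of meningeal and stromal cells, all with at least 1 UMI and led by Bmp6, a gene the members themselves express, summed to 1033, 1013 and 736 CPM in LPA libraries and 1559, 1213 and 856 in vehicle libraries. The part of such RNA in these values was not tested.

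The cilia genes had 20 tested members, with none called. At an unadjusted p under 0.05 there were 4 (20%), all positive, against 2.5% of all genes in that direction, and the list's median was 0.06. These were the axonemal genes Cfap44, Cfap54, Dnah9 and Hydin, at 0.26 (SE 0.107), 0.28 (SE 0.118), 0.26 (SE 0.119) and 0.38 (SE 0.175). They were also the 4 of the 11 tested ependymal markers (36.4%) at such a p, with a median of 0.14. In unmixed members none of either list was at an unadjusted p under 0.05, against 407 (5.48%) of the 7429 genes tested there, and the medians were -0.01 and 0.12.

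The enzyme and receptors of LPA itself were looked at next. Because Enpp2 was counted by the rule, it was read in the 901 nuclei that met every limit but the one on Enpp2. There its CPM (per all UMIs, without TMM scaling) was 4032, 4780 and 4505 in LPA brains and 5228, 4063 and 5408 in vehicle brains, with overlapping groups. The log2 fold change was -0.13 (SE 0.136, adjusted p = 0.982), and the 95% interval of the fold ran from 0.749 to 1.12. The 901 included 81 nuclei without an Enpp2 UMI, at 58.6 Ttr CPM, and 41 with 1, at 343, against 5668 in members. With them the share of nuclei rose from 1.38% to 1.69% in LPA brain 1 and from 0.701% to 0.902% in vehicle brain 2. In vehicle brain 3 it rose only from 1.17% to 1.29%. The part of these nuclei in the overlap was not tested. The other genes of the rule were read the same way, each in nuclei chosen without it. Slc4a5, an electrogenic bicarbonate cotransporter gene, was at -0.04 (SE 0.137), and Kl, which encodes the FGF co-receptor Klotho, at -0.03 (SE 0.123). Clic6, a chloride intracellular channel gene, was at 0.09 (SE 0.112) and the folate receptor gene Folr1 at 0.10 (SE 0.131), and none of the 5 was called. Of 17 LPA signaling genes 8 were abundant enough to test, with none called and a median of 0.05. At an unadjusted p under 0.05 there was 1 (12.5%), negative, against 2.69% of all genes in that direction. Lpar1 had 101 UMIs in all, with 18.0, 20.6 and 16.4 normalized CPM in LPA brains and 45.4, 32.4 and 17.5 in vehicle brains, and a log2 fold change of -0.83 (SE 0.339, adjusted p = 0.924). Its pooled level was 24.2 CPM in members against 123 in ependymal and 243 in oligodendrocyte nuclei. Lpar6 had 57 UMIs, and Lpar2, Lpar3, Lpar4 and Lpar5 had 7, 5, 12 and 1, too few to compare.

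Inflammatory genes were mostly too rare to test. Of 50 listed, 40 had any UMI and 16 were tested, with none called, and the cytokine and chemokine genes Ccl2, Ccl3, Ccl4, Cxcl1 and Cxcl10 had no UMI in any member. A UMI count of 0 allows up to 3 UMIs, or 3.51 to 6.64 CPM by library, and covers counting error only. With an unadjusted p under 0.05 there were 3 (18.8%, against 5.19% of all genes), of which Cd55, a brake on complement, was at 0.85 (SE 0.269, adjusted p = 0.787). It had 46.4, 58.2 and 46.6 normalized CPM in LPA brains and 35.3, 13.9 and 29.8 in vehicle brains. The chemokine gene Cx3cl1 was at 0.66 (SE 0.278, adjusted p = 0.924). Il34, a ligand of the CSF1 receptor on microglia, had 16.5, 14.5 and 13.7 in LPA brains and 34.1, 39.3 and 42.1 in vehicle brains, a log2 fold change of -1.35 (SE 0.284, adjusted p = 0.145). In unmixed members it was too rare to test, and 2 LPA libraries had no UMI. Of the interferon-induced genes 5 were tested, with none called, none at an unadjusted p under 0.05 and a median of -0.09.

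Among stress-related lists, the glucocorticoid-responsive genes had the lowest median. Of 16 tested none was called, and 6 (37.5%), all negative, were at an unadjusted p under 0.05, against 2.69% of all genes in that direction. The list's median was -0.32. Tsc22d3, which encodes the glucocorticoid-induced leucine zipper, had 5.99, 4.85 and 12.3 normalized CPM in LPA brains and 16.4, 32.4 and 24.6 in vehicle brains, a log2 fold change of -1.58 (SE 0.438, adjusted p = 0.53). Zbtb16 was at -0.85 (SE 0.234), Fkbp5, which tempers the receptor, at -0.79 (SE 0.288) and the metallothionein gene Mt1 at -0.77 (SE 0.244). In unmixed members 9 of the list were tested, 1 positive and 2 negative (33.3%, against 5.48% of all genes tested in them) were at an unadjusted p under 0.05, and the median was -0.28. Oligodendrocyte nuclei held 95.9 CPM of Tsc22d3 against 13.9 in members. The 9 oligodendrocyte markers, each with at least 1 UMI and led by Mbp, summed to 710, 729 and 675 CPM in LPA libraries and 773, 961 and 976 in vehicle libraries, and their part in the list was not tested.

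Of 22 unfolded protein and hypoxia genes, none was called and 3 negative ones (13.6%, against 2.69% of all genes in that direction) were at an unadjusted p under 0.05, with a median of -0.13. The chaperone gene Hsp90b1 was at -0.44 (SE 0.144, adjusted p = 0.799), and its values did not overlap between groups. In unmixed members 1 of 19 genes of this list, a negative one (5.26%), was at such a p. That compared with 5.48% of all genes tested there, and the list's median was -0.13. Of 13 clock genes none was called or at an unadjusted p under 0.05, with a median of -0.01. Only 2 immediate early genes were tested, of which Nr4a1 was at 0.85 (SE 0.379, adjusted p = 0.924).

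Markers of other cell types gave no called gene either. Of 10 neuronal, 6 oligodendrocyte precursor, 4 microglial and macrophage, 1 endothelial and 4 mural markers tested, none was at an unadjusted p under 0.05. Of 9 astrocyte markers 1 was positive (11.1%), of 6 oligodendrocyte markers 2 were negative (33.3%), and of 8 meningeal and stromal markers 3 were negative (37.5%), against 5.19% of all genes in either direction. The list medians were -0.10, -0.31 and -0.57. In unmixed members the medians of the astrocyte and of the meningeal and stromal markers turned positive, at 0.04 and 0.20, with 1 of 3 positive and 1 of 5 negative at such a p, whereas 3 of 6 oligodendrocyte markers were negative and their median was -0.35. Of the neuronal and oligodendrocyte precursor markers 1 of 7 and 1 of 3 were positive at such a p there, against 5.48% of all genes in either direction. Besides these lists and the cilia genes, the medians of 3 lists changed sign in unmixed members. They went from 0.08 to -0.03 for the identity genes, from -0.01 to 0.12 for the clock genes and from -0.0023 to 0.06 for the neuronal markers.

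The nuclear genes nearest to a call were looked at with and without the mixed members, as chosen after their values were seen. Btaf1, a regulator of TATA-binding protein, had 187, 181 and 191 normalized CPM in LPA brains and 115, 118 and 130 in vehicle brains. The groups did not overlap, and its log2 fold change was 0.62 (SE 0.129, adjusted p = 0.137) in all members. In the unmixed members it was called, at 0.80 (SE 0.173, adjusted p = 0.0362). 3100003L05Rik, a noncoding transcript at 26.1 CPM in members (against 1.39 in ependymal and 0.380 in oligodendrocyte nuclei), had 32.9, 37.6 and 43.9 against 12.6, 11.6 and 15.8. Its log2 fold change was 1.5 (SE 0.299, adjusted p = 0.117) in all members and 1.68 (SE 0.367, adjusted p = 0.0362) in unmixed members.

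The unmixed members gave 4 genes called higher (0.0538%) and 3 called lower (0.0404%) of 7429 tested. Besides Btaf1 and 3100003L05Rik, those called higher were Gm26917, at 0.97 (SE 0.158, adjusted p = 0.000676), and the synaptic adhesion gene Nrxn3, at 0.86 (SE 0.151, adjusted p = 0.00196). Those called lower were mt-Co3, mt-Atp6 and mt-Co2. Gm26917 overlapped between groups in all members, with 807, 1088 and 1652 against 814, 571 and 621. Nrxn3 was at 0.18 (SE 0.194) in all members and was more abundant in the mixed ones, with 1190 to 1792 normalized CPM in LPA libraries with them and 347 to 491 CPM (per all UMIs, without TMM scaling) without them.

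Other genes near a call had smaller fold changes without the mixed members. Mctp1, a calcium-binding membrane protein gene, was at -0.96 (SE 0.186, adjusted p = 0.111) in all members and at 0.11 (SE 0.363) in unmixed members. Sorcs1, a sorting receptor gene, was at 1.00 (SE 0.194, adjusted p = 0.111) and at -0.20 (SE 0.341). Egfr was at -0.80 (SE 0.167, adjusted p = 0.137) and at -0.32. Ptgds, which encodes a prostaglandin synthase strong in meninges, had 126, 131 and 60.3 normalized CPM in LPA brains and 333, 581 and 89.5 in vehicle brains. It was at -1.62 (SE 0.412, adjusted p = 0.396), and at -0.63 (SE 0.232, adjusted p = 0.612) in unmixed members.

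**Figure D4:**
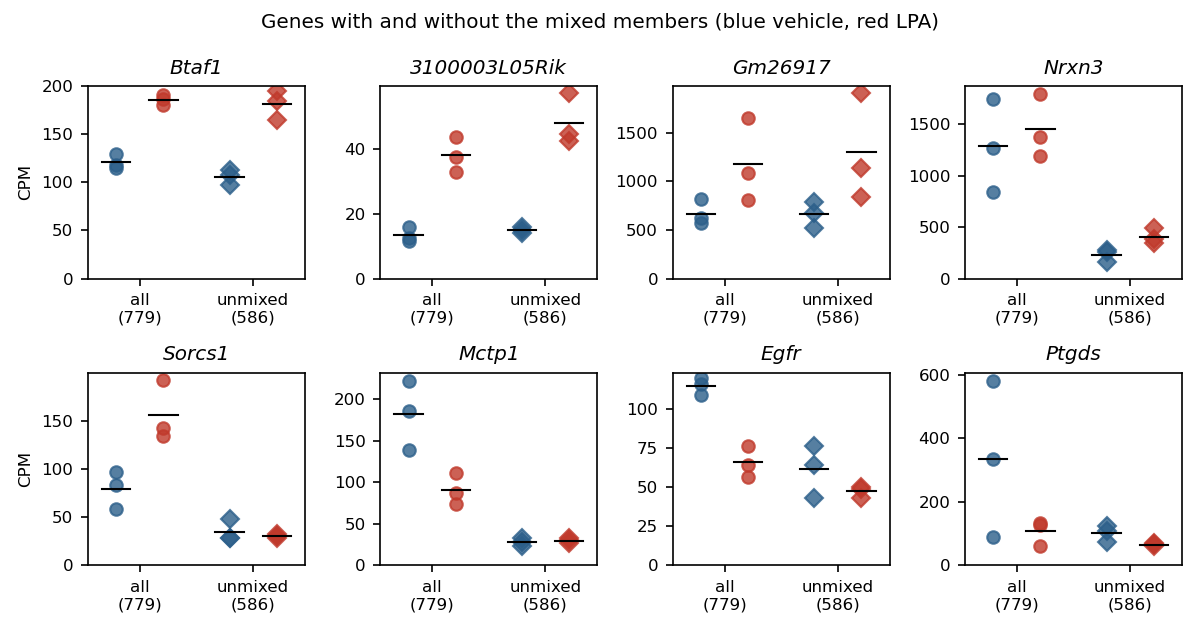
CPM per library (vehicle in blue, LPA in red, bars at the mean) of 8 genes in all 779 members (circles, normalized CPM) and in the 586 unmixed members (diamonds, CPM without TMM scaling). Btaf1 and 3100003L05Rik keep separate groups in both, whereas Sorcs1 and Mctp1 drop to one low level once the mixed members are left out.

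The response of the choroid plexus was then compared with that of the ependymal nuclei of the same libraries, the population nearest to it in the ventricle. In ependymal nuclei alone, 121 genes were called higher (1.19%) and 110 lower (1.08%) of 10208 tested. The interaction of population and treatment, which tests whether the fold changes differ, was called for 9 genes in the direction of a higher change in the choroid plexus (0.0798%) and for 16 in the other (0.142%), of 11285 tested. Both populations share their libraries, which stayed in the fit as a block.

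Of the 10 genes leading this comparison, 5 in each direction, 8 were called in ependymal nuclei alone and none in choroid plexus nuclei alone. Cep152, a centriole duplication gene, had 16.5, 19.4 and 26.0 normalized CPM in choroid plexus nuclei of LPA brains and 29.0, 23.1 and 29.8 in those of vehicle brains. In ependymal nuclei it had 70.6, 93.9 and 115 against 22.9, 24.5 and 18.6. The ependymal LPA values thus stood apart from all others, and the fold changes differed by -2.52 on the log2 scale (SE 0.386, adjusted p = 0.00655). The gene lies on chromosome 2 at positions 125563088 to 125625113 of mm10, on the minus strand. The nuclear noncoding RNA Neat1 had 247, 270 and 278 against 318, 208 and 291 in choroid plexus nuclei, where groups overlapped. In ependymal nuclei it had 227, 236 and 213 against 102, 102 and 89.8, and the difference was -1.29 (SE 0.210, adjusted p = 0.00762). Without vehicle brain 1 it was not called (-1.17, adjusted p = 0.094). The cadherin gene Cdh4 and the noncoding RNA Mir670hg showed the same arrangement, with log2 fold changes of -0.15 and -0.05 in choroid plexus nuclei and 1.48 and 1.64 in ependymal nuclei.

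In the opposite direction, Rassf9, a Ras-association domain gene, was called lower in ependymal nuclei at -1.13 (SE 0.145, adjusted p = 0.000121) and stood at 0.15 (SE 0.209) in choroid plexus nuclei. The difference of 1.28 was not called without LPA brain 3 (1.22, adjusted p = 0.103) or without vehicle brain 1 (1.00, adjusted p = 0.155). Ralyl, an RNA-binding protein gene, was at -0.78 (SE 0.137) in ependymal and 0.22 (SE 0.196) in choroid plexus nuclei. Dach1, a transcription factor gene, was at -1.01 (SE 0.257) and 0.59 (SE 0.324). Neither Ralyl nor Dach1 was called in this comparison with the unmixed members. The call of Ralyl was also lost without LPA brain 3 (0.87, adjusted p = 0.132) or vehicle brain 1 (0.86, adjusted p = 0.12), and that of Dach1 without LPA brain 1 (1.21, adjusted p = 0.137) or vehicle brain 1 (1.39, adjusted p = 0.247). Flt1, the VEGF receptor gene of endothelial cells, had 35.9, 7.27 and 24.7 normalized CPM in choroid plexus nuclei of LPA brains and 21.4, 9.25 and 5.26 in those of vehicle brains. In ependymal nuclei it had 47.4, 16.1 and 16.9 against 119, 172 and 15.5, with groups that overlapped, and was called lower at -1.92 (SE 0.437, adjusted p = 0.02). The difference was 2.62 in all members and 4.55 (adjusted p = 1.61e-07) in unmixed members. Without 1 library it ran from 2.12 to 3.26 and was not called without LPA brain 3 (2.25, adjusted p = 0.103). It rested on 28 choroid plexus nuclei, with 48.6% of its UMIs in 3 of them. A cluster of 116 members, in which 2 endothelial markers were over 3 times as high as in the rest and which therefore counted as unmixed, held 33, 31 and 18 nuclei of LPA brains and 10, 16 and 8 of vehicle brains. The 9 endothelial markers of the list, each with at least 1 UMI and Flt1 the most abundant, summed to 127, 64.4 and 78.2 CPM in LPA libraries and 62.9, 42.1 and 45.9 in vehicle libraries, and their part in this result was not tested. Ptgds had the larger change in the choroid plexus, at -1.62 against 0.08 in ependymal nuclei, and it was not called in the unmixed members, where the difference was -0.81 (adjusted p = 0.311), nor without LPA brain 3 (-1.27, adjusted p = 0.0558) or vehicle brain 1 (-1.45, adjusted p = 0.121).

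**Figure D5:**
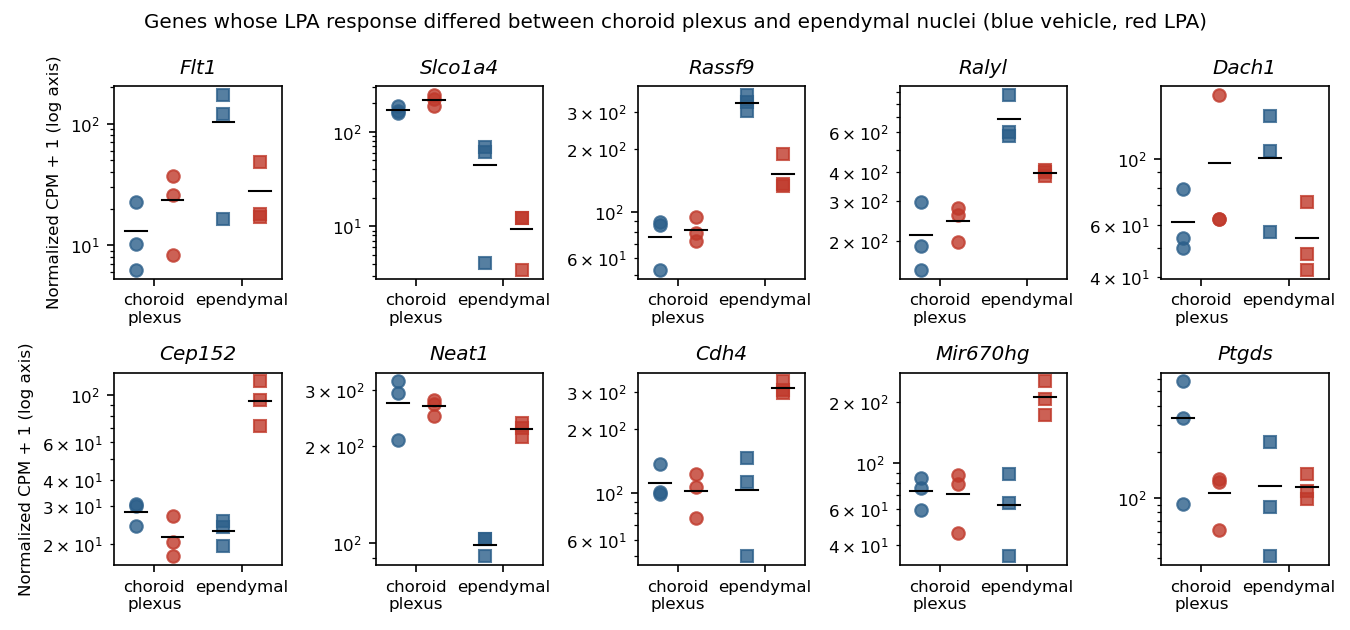
Normalized CPM plus 1 (log axis) per library of the 10 genes with the lowest adjusted p in the comparison of responses, in choroid plexus (circles) and ependymal nuclei (squares), vehicle in blue and LPA in red, with bars at the mean. For Cep152, Neat1, Cdh4 and Mir670hg the ependymal LPA points stand above all ependymal vehicle points while the choroid plexus points of both groups overlap.

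Against all other nuclei of the same libraries, a mix of cell types in which a changed makeup also counts as change, 24 genes had a higher change in choroid plexus nuclei (0.123%) and 32 a lower one (0.164%) of 19458 tested. In all other nuclei alone 690 genes were called higher (3.36%) and 411 lower (2%) of 20563. Bmp6, which encodes a bone morphogenetic protein involved in iron sensing, had 445, 517 and 371 normalized CPM in choroid plexus nuclei of LPA brains and 528, 407 and 307 in those of vehicle brains. In all other nuclei it had 88.8, 101 and 95.5 against 177, 166 and 191, and the difference was 1.03 (SE 0.131, adjusted p = 5.07e-11). Npr3, the clearance receptor for natriuretic peptides, was at 0.51 (SE 0.191) in choroid plexus and -1.08 (SE 0.0872) in all other nuclei. The sulfate transporter gene Slc13a4 was at -0.07 against -0.79, a difference not called without LPA brain 3 (0.61, adjusted p = 0.0563). All 3 were called lower in the other nuclei, and none was called in choroid plexus nuclei.

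Among genes with a lower change in the choroid plexus, Anapc15, a subunit of the anaphase-promoting complex, had 37.4, 27.9 and 45.2 against 35.3, 37.0 and 40.4 normalized CPM in choroid plexus nuclei, where groups overlapped. In all other nuclei it had 26.4, 26.4 and 26.9 against 7.62, 8.67 and 7.72, and the difference was -1.75 (SE 0.291, adjusted p = 8.76e-06). The cilia genes Ak9, Spag16 and Dnah6 stood at -0.09, 0.05 and 0.04 in choroid plexus nuclei and at 0.98, 0.76 and 0.80 in all other nuclei, which include the ependymal ones. In those other nuclei Spag16 was called (edgeR adjusted p = 0.0490), but Ak9 (adjusted p = 0.0621) and Dnah6 (adjusted p = 0.160) were not. The difference for Dnah6, -0.74 in all, was not called without vehicle brain 2 (-0.56, adjusted p = 0.0756), without vehicle brain 3 (-0.56, adjusted p = 0.122) or without the mitochondrial limit (-0.39, adjusted p = 0.528). The ependymal share of nuclei was 2.30%, 1.69% and 2.33% in LPA brains and 2.07%, 0.612% and 0.836% in vehicle brains, and its part in these differences was not tested. The macrophage gene Mrc1 was found in 10 members, with 78.1% of its UMIs in 3 of them and 29.0 normalized CPM in vehicle brain 1 against at most 3.51 in the other libraries. Without vehicle brain 1 its difference went from -3.08 to -0.90 (adjusted p = 0.995). Sorcs1 had a difference of 0.93 (adjusted p = 0.000572), which was -0.27 in unmixed members and was not called without vehicle brain 1 (0.71, adjusted p = 0.0861).

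Among themselves the unmixed members fell into 3 groups of 267, 161 and 158 nuclei, on which no test was made because the same genes formed them. The group of 161 was led by Pax3, a patterning transcription factor gene, at 41.0 CPM against 2.23 in the others, and by Pdzrn4, a ubiquitin ligase gene, at 804 against 214. Pdzrn4 was found in 70.8% of its nuclei and 36.2% of the others. This group made up 27.6%, 32.2% and 24.8% of unmixed members in LPA brains, and 21.7%, 21.9% and 33.6% in vehicle brains, with overlapping ranges. The group of 267 made up 55.2%, 41.5% and 46.5% in LPA brains and 48.1%, 48.4% and 37.3% in vehicle brains, which also overlapped. The group of 158 made up 17.2%, 26.3% and 28.7% in LPA brains and 30.2%, 29.7% and 29.1% in vehicle brains. Every LPA brain lay below every vehicle brain, but only narrowly. The nearest were LPA brain 3, at 28.7% of 101 unmixed members, and vehicle brain 3, at 29.1% of 110. The group of 267 was led by Flt1 and Cxcl12, at 34.4 and 23.0 CPM against 5.96 and 2.98, each found in under 6% of its nuclei, and the group of 158 by Dhrs7b at 53.1 against 17.6. The median depths of the 3 groups were 4118, 4241 and 4234.5 UMIs.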

How the data were processed

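Single-nucleus libraries (10x 3′ v3) were aligned by the authors with Cell Ranger 4.0.0 to an mm10 reference that includes introns, and the deposited values are raw UMI counts per gene and nucleus, 32285 genes in all, without normalization. Library totals ran from 48852970 to 65688644 UMIs, and intervals on shares cover counting error only. Members and gene lists were chosen with earlier results of these data known. Counts were summed per library and tested with edgeR 4.0.16 (TMM, filterByExpr, quasi-likelihood test, Benjamini-Hochberg over all genes tested) in R 4.3.3; the step was tested on simulated data. Genes named in the rule were read only in nuclei selected without them. Mitochondrial genes were tested in nuclei selected with at most 1% mitochondrial UMIs, and that limit was lifted only as an alternative. Interactions kept the library as a block. Counts were given over 26 lists, the genes of the rule being 1 of them (475 genes, 471 of them in the matrix), and some of their members were named with their values. By the rule for named genes, the text also names called genes, and for each interaction the 5 genes of lowest adjusted p in each direction; genes near a call and those called in unmixed members were added after their values were seen. Alternatives were DESeq2 1.42.0, RLE factors, no filter on low counts, the replicate block, a sex term, other limits on UMIs, Enpp2 and mitochondrial share, equal numbers of nuclei, and leaving out each library. Leaving out mixed members and requiring 3 Ttr UMIs were chosen after seeing the data. Clusters came from scanpy 1.11.5. Doublets called by Scrublet (expected rate 0.08) were kept in and left out as an alternative. Coordinates are mm10, from the GENCODE annotation. The smallest p of the exact permutation test was 0.1. Some genes of the lists count in their totals but are not reported here by name.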

Additional observations from a re-analysis of the deposited data

Results flagged for a closer look

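Genes whose response to LPA differed between choroid plexus and ependymal nuclei by the test of the difference itself (edgeR, interaction of population and treatment) were picked out, 5 in each direction. The log2 fold change in choroid plexus nuclei minus that in ependymal nuclei was 2.62 for Flt1, 2.72 for Slco1a4, 1.28 for Rassf9, 1.01 for Ralyl and 1.51 for Dach1. In the other direction it was -2.52 for Cep152, -1.29 for Neat1, -1.68 for Cdh4, -1.75 for Mir670hg and -1.75 for Ptgds. Against all other nuclei, the same difference was 1.03 for Bmp6, 1.62 for Npr3, 0.76 for Slc13a4, 0.80 for Arhgap28 and 0.93 for Sorcs1, and -1.04 for Ak9, -1.75 for Anapc15, -0.71 for Spag16, -0.74 for Dnah6 and -3.08 for Mrc1. Slco1a4 was too rare to be tested in ependymal nuclei alone, where it had 11.1, 2.47 and 11.3 normalized CPM in LPA brains and 68.7, 59.6 and 3.10 in vehicle brains, and its difference was not called without vehicle brain 1 (2.13, adjusted p = 0.392). The endothelial gene Flt1 was likewise higher in ependymal nuclei of vehicle brains 1 and 2 than of vehicle brain 3 (119, 172 and 15.5). The part of endothelial RNA in these values was not tested. Leaving out 1 library also ended the calls of Flt1, Rassf9, Ralyl, Dach1, Neat1 and Ptgds against ependymal nuclei, and of Slc13a4, Arhgap28 (0.62 without LPA brain 1, adjusted p = 0.0695), Sorcs1, Dnah6 and Mrc1 against all other nuclei. Those of Cep152, Cdh4 and Mir670hg, and of Bmp6, Npr3, Ak9, Anapc15 and Spag16, were kept without any 1 library. Of the 25 genes called against ependymal nuclei, 16 were also called with the unmixed members (64.0% of the 25 and 38.1% of the 42 called then), and of the 56 called against all other nuclei 26 were (46.4% of the 56 and 68.4% of the 38). No cause was tested for any of these differences.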

How the results depend on the processing

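The 5 genes called in the choroid plexus as processed above were mitochondrial, and the number called moved with the processing, as did the presence of nuclear genes among them. Instead of 5 it was 3 with DESeq2, 50 with no filter on low counts (15 higher, 35 lower), 2 without the mitochondrial limit, 2 without the Enpp2 limit, 1 without Scrublet doublets, 1 with equal numbers of nuclei (Mctp1) and 0 in edgeR with at least 6 UMIs of the 4 genes, where 426 genes had an unadjusted p under 0.05 and the 5 stood at -1.25 to -1.57. Leaving out 1 library gave 1 to 12 genes: 12 without LPA brain 1, 1 without LPA brain 2 and 2 without vehicle brain 2. The replicate block gave 6, with mt-Nd4 no longer called (-1.51, adjusted p = 0.0966) and Ptgds and Mctp1 added. Same-numbered brains correlated at 0.03, 0.08 and 0.02 in their deviations, within the -0.13 to 0.10 of differently numbered brains. These few values showed no pairing by number but could not exclude it. Under the block the share of nuclei differed by 0.206 points (exact paired permutation test, p = 0.75, the smallest possible 0.25). Without 1 library that difference ran from -0.0574 (without vehicle brain 2) to 0.499. The 25 genes against ependymal nuclei became 42 without the mitochondrial limit, 42 without mixed members, 45 with at least 3 Ttr UMIs, and 7 to 37 without 1 library (7 without LPA brain 3, 10 without vehicle brain 1). The 56 against all other nuclei became 22 to 85 (29 without LPA brain 2, 22 without LPA brain 3, 85 without vehicle brain 1). Uncalled values that changed sign were Slc4a5 (-0.145 to 0.0586 without 1 library, above 0 without LPA brain 1, at 0.0119, LPA brain 3, at 0.0182, or vehicle brain 3), Kl (-0.113 to 0.0644, above 0 without LPA brain 3, at 0.0351, or vehicle brain 1) and Folr1 (-0.0165 to 0.206, below 0 without LPA brain 2). The call of Sorcs1 against all other nuclei (0.93, adjusted p = 0.000572) turned to -0.27 without mixed members (adjusted p = 1). The causes were not tested. With 451604 to 853741 UMIs a library, 7944 of 9766 genes had an interval within 2-fold.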
